A study of Mus musculus with 12 samples.

Results

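The genes described here are 39 genes of glycolysis and of the transcriptional response to low oxygen, found by gene symbol among the 54532 genes of a bulk RNA-seq count table. The 39 comprise 17 glycolytic enzymes, 4 glucose and lactate transporters, 5 kinases that regulate glycolytic flux, 3 oxygen sensing genes and 10 other targets of the hypoxia-inducible factors (HIFs). The libraries came from mouse melanomas grown from wild-type B16F10 cells, a C57BL/6 melanoma line, of which 1000 were implanted intradermally in Matrigel on day 0 into both legs of male mice of 8 to 12 weeks. The 6 control libraries (Ctrl) came from Trex1 wt/fl-R26CreERT2-ki/wt hosts and the 6 induced knockout libraries (iKO) from Trex1 fl/fl-R26CreERT2-ki/wt hosts. Hosts of both groups carried the tamoxifen-activated Cre and at least 1 floxed Trex1 allele, and both received 1 mg tamoxifen intraperitoneally for 3 days from day 5. Tumours were taken on day 14, and cells sorted as negative for the leukocyte marker CD45 and the endothelial marker CD31 were sequenced; the protocol wording leaves unclear whether 1 or both markers had to be absent. Because the Cre was driven from the Rosa26 locus, deletion was not restricted to a cell type of the host, and the implanted tumour cells carried no floxed allele.

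Glycolysis turns glucose into pyruvate through a chain of cytosolic enzymes, several of which exist as isozymes from separate genes, and lactate dehydrogenase then reduces pyruvate to lactate. In low oxygen the prolyl hydroxylases slow down, the HIF alpha subunit escapes degradation and the HIF dimer binds promoters and enhancers that hold an RCGTG core. Many glycolytic genes and some members of both transporter families are HIF targets. In melanoma and other solid tumours glycolysis and the oxygen response are therefore often transcribed together. HIF alpha is controlled mainly at the level of the protein, which RNA counts do not measure.

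The comparison asks how host Trex1 deletion was accompanied by altered RNA levels in the cells sorted from the tumours. Trex1 itself, the DNA exonuclease targeted in the hosts, was listed at 0 counts in all 12 libraries, so the table gives no check of the deletion. This holds in Ctrl too, whose hosts carried 1 wild-type allele, and although the implanted cells were wild-type. Why the gene was at 0 throughout was not tested. By counting error alone, a count of 0 allows up to 3 counts. Library totals ran from 34342436 to 45828565 counts in Ctrl (median 39862438, n = 6) and from 29808243 to 35520399 counts in iKO (median 33221000, n = 6). The libraries Ctrl 5 and iKO 1 lay between the remaining libraries of their groups in Ptprc, the leukocyte gene that encodes the sort marker CD45. It was at 15.6 CPM (counts-per-million, scaled by trimmed mean of M values) in Ctrl 5 and 17.4 CPM in iKO 1. The other Ctrl libraries held 0.158 to 1.54 CPM and the other iKO libraries 159 to 345 CPM. Pecam1, which encodes the sort marker CD31, rose from 4.18 ± 0.705 to 10.9 ± 3.72 CPM (SD, n = 6 each; edgeR adjusted p = 0.000565). Transcripts of both sort markers were thus higher in iKO, and the libraries are not read as pure tumour cells. Among 10 leukocyte markers 9 rose in iKO and 0 fell, and their summed level was 305 to 493 CPM in Ctrl and 450 to 2115 CPM in iKO. The largest part of the Ctrl sum was Arhgdib, the marker that did not pass (means of 247.9 CPM in Ctrl and 244.0 CPM in iKO). Of 10 pigment cell markers, which identify the melanoma cells, 0 rose and 7 fell; their sum was 22686 to 23608 CPM in Ctrl and 15604 to 23442 CPM in iKO, with iKO 1 highest of the iKO libraries. Counts of Y-linked genes also differed among iKO libraries although all hosts were labelled male, with 44 in iKO 2, 0 in iKO 3 and 1298 to 1513 in iKO 4 to 6, against 107 to 254 in the other 7.

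The core motif could be looked for in the 250 bases before the RefSeq transcription start (GRCm38.p6, the same assembly as mm10) for 37 of the 39 genes; Slc2a3 and Ndrg1 had no entry. The motif, ACGTG or GCGTG on either strand, was present in 30 of 37 windows (81.1%). Over all genes of the count table with a window, 1 window each, it was in 8620 of 20452 (42.1%). Among genes that were tested here it was in 6147 of 11118 windows (55.3%). The members' windows were also richer in G and C, with a median of 62.8% against 54.4% over all windows and 59.6% over those of tested genes. By outcome in iKO, the motif was in 9 of 10 windows of genes that rose, 7 of 7 of genes that fell and 14 of 20 of genes that did not pass the test. Windows are shown for an oxygen sensor and an enzyme that rose (Egln3, Hk2), for the lactate dehydrogenase subunit that fell (Ldhb) and for its partner that did not pass the test (Ldha), each 5′ to 3′ on the strand of its gene with the motif in capitals; CACGTG, which is also the E-box, holds the core on both strands.
Egln3, chr12:54203875-54204124, minus strand: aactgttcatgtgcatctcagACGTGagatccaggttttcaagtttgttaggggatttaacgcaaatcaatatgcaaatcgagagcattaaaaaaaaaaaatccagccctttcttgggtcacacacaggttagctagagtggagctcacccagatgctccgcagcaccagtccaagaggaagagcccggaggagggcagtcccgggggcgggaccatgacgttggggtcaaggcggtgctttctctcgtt
Hk2, chr6:82774455-82774704, minus strand: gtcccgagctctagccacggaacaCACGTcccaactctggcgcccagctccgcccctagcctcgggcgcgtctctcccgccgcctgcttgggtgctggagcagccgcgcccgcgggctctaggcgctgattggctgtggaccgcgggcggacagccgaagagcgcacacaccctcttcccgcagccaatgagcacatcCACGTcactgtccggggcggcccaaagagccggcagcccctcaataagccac
Ldha, chr7:46845554-46845803, plus strand: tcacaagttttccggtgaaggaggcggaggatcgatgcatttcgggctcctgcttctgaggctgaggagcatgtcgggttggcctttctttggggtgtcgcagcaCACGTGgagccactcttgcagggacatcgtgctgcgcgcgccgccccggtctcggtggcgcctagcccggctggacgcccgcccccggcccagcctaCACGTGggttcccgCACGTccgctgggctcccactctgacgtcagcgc
Ldhb, chr6:142507958-142508207, minus strand: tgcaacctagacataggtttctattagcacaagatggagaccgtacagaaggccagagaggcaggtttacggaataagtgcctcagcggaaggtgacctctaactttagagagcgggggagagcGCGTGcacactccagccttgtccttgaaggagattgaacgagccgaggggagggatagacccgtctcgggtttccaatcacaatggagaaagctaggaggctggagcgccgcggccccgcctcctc
Ldha held 5 matches, 4 of them in 2 CACGTG palindromes, Hk2 held 2, and Egln3 and Ldhb held 1 each. A match describes the letters in the window and says nothing about HIF binding.

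All 39 genes passed the filter on low counts. In iKO 12 rose (30.8%) and 7 fell (17.9%) at an adjusted p under 0.05 in edgeR's quasi-likelihood test, while 20 did not pass. Over all 16164 tested genes 4037 rose (25.0%) and 3464 fell (21.4%), so the members' shares were near the background, and their median log2 fold change was 0.09 against 0.02 over all tested genes. The groups did not overlap for 4 members that were above Ctrl in every iKO library (Pfkfb3, Pfkfb4, Ndrg1 and Kdm3a) and for 1 that was below (Ldhb); over all tested genes these shares were 11.8% above and 11.1% below. A log2 fold change of at least 1 in size was reached by 3 members, Egln3, Pfkfb3 and Pfkfb4. Without iKO 1, 18 members rose and 7 fell, beside 27.1% and 22.6% of 16573 tested genes. With Ctrl 5 and iKO 1 left out, 19 members rose and 7 fell, beside 27.0% and 20.3% of 16429 tested genes. With the mean log2 CPM of the leukocyte markers as a covariate, 0 members rose and 6 fell, beside 5.89% and 6.16% of all tested genes. At an unadjusted p under 0.05 in edgeR, the only tool run with the covariate, 2 members rose. Outside Ctrl 5 and iKO 1 the groups do not meet in leukocyte level, so the covariate and the group can hardly be told apart. Fewer cells of a type and less RNA per cell cannot be told apart in these bulk libraries.

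**Figure D1:**
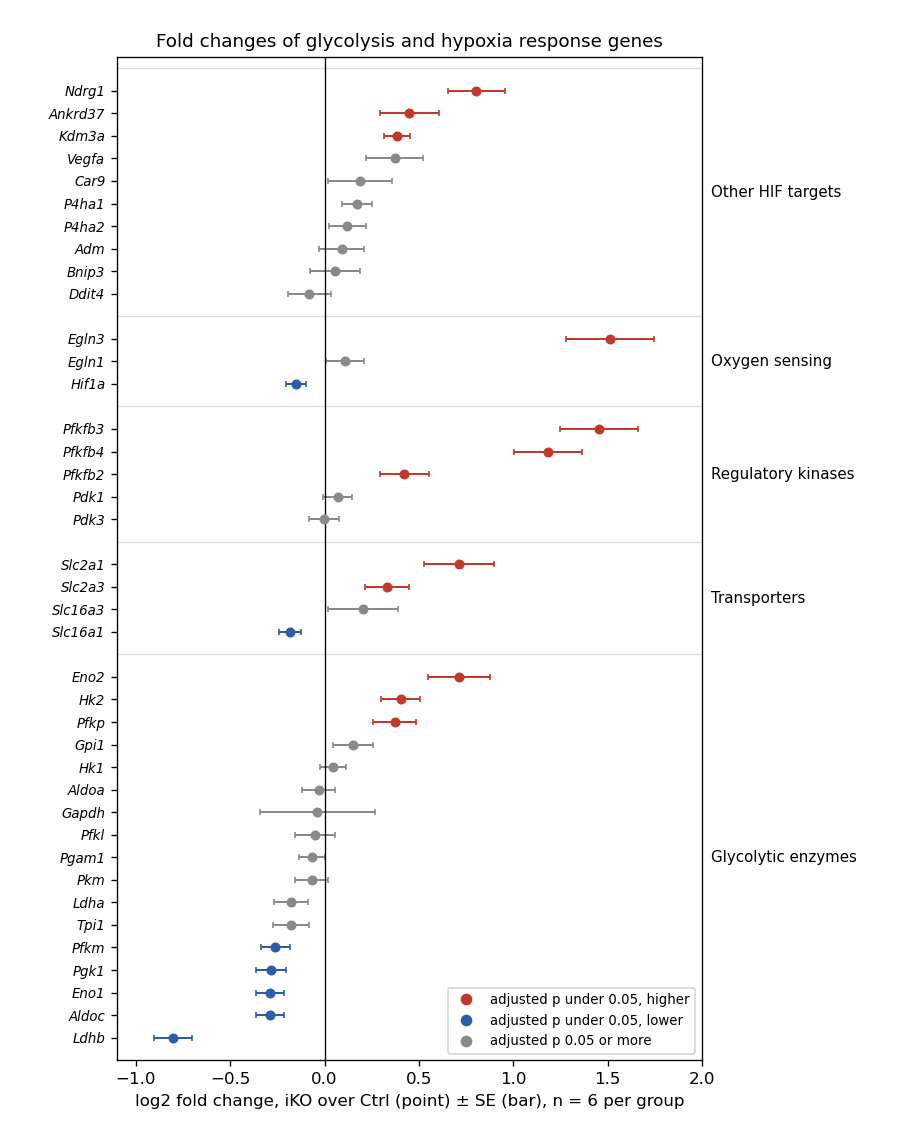
Log2 fold change of each of the 39 genes, iKO over Ctrl (point) with its standard error (bar), 6 libraries per group, arranged by role. Points in red (12 genes) rose, points in blue (7 genes) fell and points in grey (20 genes) did not pass an adjusted p of 0.05.

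Among the 17 glycolytic enzymes 3 rose (Eno2, Hk2 and Pfkp), 5 fell (Ldhb, Aldoc, Eno1, Pgk1 and Pfkm) and 9 did not pass the test. These shares were 17.6% and 29.4%, beside 25.0% and 21.4% of all tested genes, and the median log2 fold change was -0.07. Each of the 3 that rose has another isozyme among the 17, and Eno1 and Pgk1, which fell, were among the most abundant enzymes per length in Ctrl. The largest change was the fall of Ldhb, the heart-type subunit of lactate dehydrogenase (ENSMUSG00000030246, chr6:142490249-142507957 on mm10). Its lowest, median and highest levels were 279.7, 295.3 and 342.8 CPM in Ctrl and 133.0, 168.7 and 211.4 CPM in iKO. Every iKO library was below every Ctrl library, iKO 4 being lowest and iKO 1 highest, and no other enzyme was separated in this way. The means were 302.0 ± 23.1 and 173.2 ± 29.7 CPM (SD, n = 6 each), a log2 fold change of -0.80 ± 0.10 (SE; edgeR adjusted p = 4.3e-05).

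Ldha, the muscle-type subunit and a classical HIF target (chr7:46841475-46855627), was at 2845, 2946 and 3324 CPM (lowest, median, highest) in Ctrl and at 2099, 2652 and 3241 CPM in iKO. The groups overlapped, with iKO 1 lowest, and the log2 fold change was -0.18 ± 0.09 (edgeR adjusted p = 0.127). The palindromes in its promoter window shown above were thus found in a gene that did not pass the test.

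Eno2, the neuron-type enolase (chr6:124760053-124769673), was at 26.2, 31.1 and 32.7 CPM in Ctrl and at 32.0, 47.0 and 70.6 CPM in iKO (lowest, median, highest). The lowest iKO library, iKO 3, lay inside the Ctrl range and iKO 4 was highest; the log2 fold change was 0.71 ± 0.17 (edgeR adjusted p = 0.00373). Eno1, the common enolase (chr4:150236721-150248879), moved the opposite way, from 5280, 5652 and 6247 CPM in Ctrl to 4133, 4552 and 5438 CPM in iKO. Only the upper end of the iKO range, iKO 6, reached into the Ctrl range, and the log2 fold change was -0.29 ± 0.08 (edgeR adjusted p = 0.00663).

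Hk2, the inducible hexokinase that commits glucose to the pathway (ENSMUSG00000000628, chr6:82725025-82774454), was at 422.3, 437.7 and 458.1 CPM in Ctrl and at 419.0, 590.5 and 722.2 CPM in iKO (lowest, median, highest). In 5 of 6 iKO libraries it was above every Ctrl library, the exception being iKO 1, and the log2 fold change was 0.40 ± 0.10 (edgeR adjusted p = 0.00597). Its housekeeping counterpart Hk1 was at 385.9 ± 10.9 CPM in Ctrl and 398.0 ± 44.6 CPM in iKO (SD, n = 6 each; log2 fold change 0.04 ± 0.07, edgeR adjusted p = 0.636). Aldoc, the brain-type aldolase (chr11:78322968-78327781), was at 89.5, 97.1 and 104.9 CPM in Ctrl and at 65.5, 78.9 and 92.1 CPM in iKO. The ranges overlapped at the edge, iKO 4 was lowest, and the log2 fold change was -0.29 ± 0.07 (edgeR adjusted p = 0.00526).

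The other 3 enzymes that passed were Pfkp, the platelet-type phosphofructokinase, at a log2 fold change of 0.37 ± 0.11, Pgk1, the phosphoglycerate kinase that makes ATP, at -0.28 ± 0.08, and Pfkm, the muscle-type phosphofructokinase, at -0.26 ± 0.08. Log2 fold changes of the 9 enzymes that did not pass ran from -0.18 (Tpi1) to 0.15 (Gpi1), with Ldha, Pgam1, Pkm, Pfkl, Gapdh, Aldoa and Hk1 between them. Under scaling to library totals alone or to the upper quartile, Tpi1 and Ldha passed as lower, which made 7 enzymes lower in place of 5. The upper-quartile scaling changed the split over all 39 genes from 12 higher and 7 lower to 10 higher and 9 lower, that is, from 63.2% to 52.6% of the calls being higher.

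Gapdh (chr6:125161715-125166467), often used as a reference gene, has counts in this table that are uncertain. It was at 122.1, 358.4 and 368.4 CPM in Ctrl and at 194.9, 292.9 and 513.4 CPM in iKO (lowest, median, highest), the widest Ctrl range of any enzyme relative to its level, and the log2 fold change was -0.04 ± 0.30 (edgeR adjusted p = 0.929). In the annotation 78 other genes, at least 95% identical to it over at least 200 bases, cover 88.0% of its transcript. These copies held 108059 counts against 135769 for Gapdh itself, and their share of the joint counts was 36.0 to 70.9% per library, highest in Ctrl 5. In Ctrl 5 the copies held 10780 counts, within the 8611 to 11169 of the other Ctrl libraries. Gapdh itself held 4428 there, against 9494 to 17005. Scaled to library totals, Gapdh and copies together were still lowest of Ctrl in Ctrl 5 (417.8 CPM) and highest of iKO in iKO 6 (761.9 CPM). Copies took at most 2.18% beside any other enzyme (Eno1, with 3 copies). Exons of Pkm overlapped those of another gene over 15.3% of their length (same strand), and exons of Gpi1 did so over 11.5% (opposite strand). Exons of Pfkm overlapped those of 2 other genes over 10.7% (mainly the same strand). The libraries were not strand specific, so counts of these genes carry that uncertainty.

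**Figure D2:**
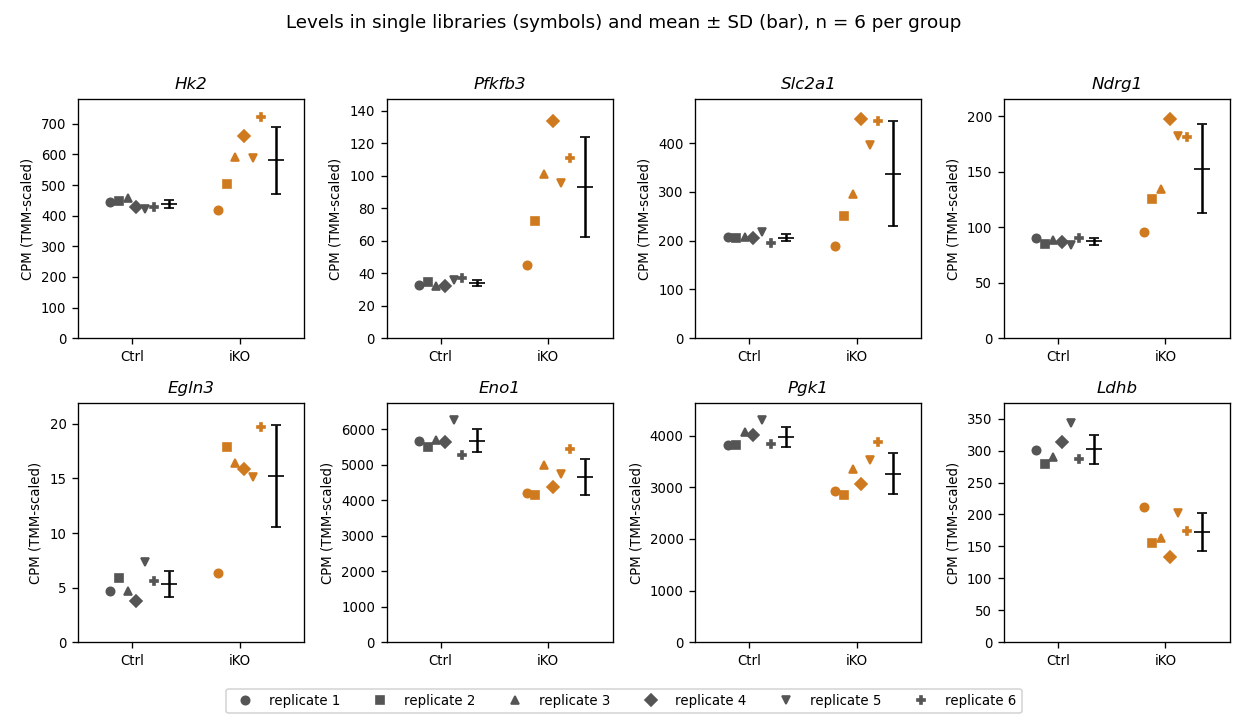
Levels of 8 members in CPM (vertical axes, from 0) in each Ctrl and iKO library (symbols by replicate number, which pairs no samples), with the mean and SD (bars). Ldhb is lower in every iKO library, Pfkfb3 and Ndrg1 are higher in every iKO library, and iKO 1 lies nearest the Ctrl libraries for Hk2, Pfkfb3, Slc2a1, Ndrg1, Egln3 and Ldhb.

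Levels of different genes were compared as TPM (transcripts-per-million), which divide by gene length. In Ctrl the most abundant enzyme was Pgk1 at 5752 ± 109 TPM (SD, n = 6), followed by Eno1 at 3423 ± 118, Pkm at 3319 ± 161, Aldoa at 3236 ± 86.3, Ldha at 2948 ± 44.7 and Tpi1 at 2850 ± 78.8 TPM. The means of Eno1, Pkm and Aldoa differed by about their own SD, so no order among these 3 is read. At the other end were Pfkm at 62.0 ± 2.42 and Eno2 at 21.1 ± 1.92 TPM. In iKO Pgk1 was still highest, at 4815 ± 421 TPM, and Eno2 was still lowest, at 35.1 ± 9.94 TPM.

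Within isozyme pairs the composition shifted, which is described here without a test since the genes' own tests are given above. Ldhb made up 17.5 ± 0.319% of the summed Ldha and Ldhb TPM in Ctrl (SD, n = 6; range 17.1 to 17.9%) and 12.2 ± 2.82% in iKO (range 9.74 to 17.5%). The iKO 1 library kept the share of the Ctrl libraries and the other 5 were below all of them. Eno2 made up 0.613 ± 0.0515% of the summed Eno1 and Eno2 TPM in Ctrl and 1.23 ± 0.389% in iKO, with every iKO library above every Ctrl library, although Eno1 remained the bulk of that sum. Pfkp rose from 18.7 ± 0.749% of the summed Pfkl, Pfkm and Pfkp TPM in Ctrl (range 17.3 to 19.5%) to 23.8 ± 2.07% in iKO (range 21.2 to 27.2%), again without overlap. The liver-type Pfkl was 69.5 ± 0.770% of that sum in Ctrl and 66.3 ± 1.42% in iKO, below Ctrl in every iKO library. Hk2 was 61.9 ± 0.926% of the summed Hk1 and Hk2 TPM in Ctrl and 67.3 ± 3.53% in iKO, where iKO 1 at 60.9% lay within the Ctrl range. These sums hold members alone and leave out Eno3, which fell in iKO, and Hk3, which rose.

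**Figure D3:**
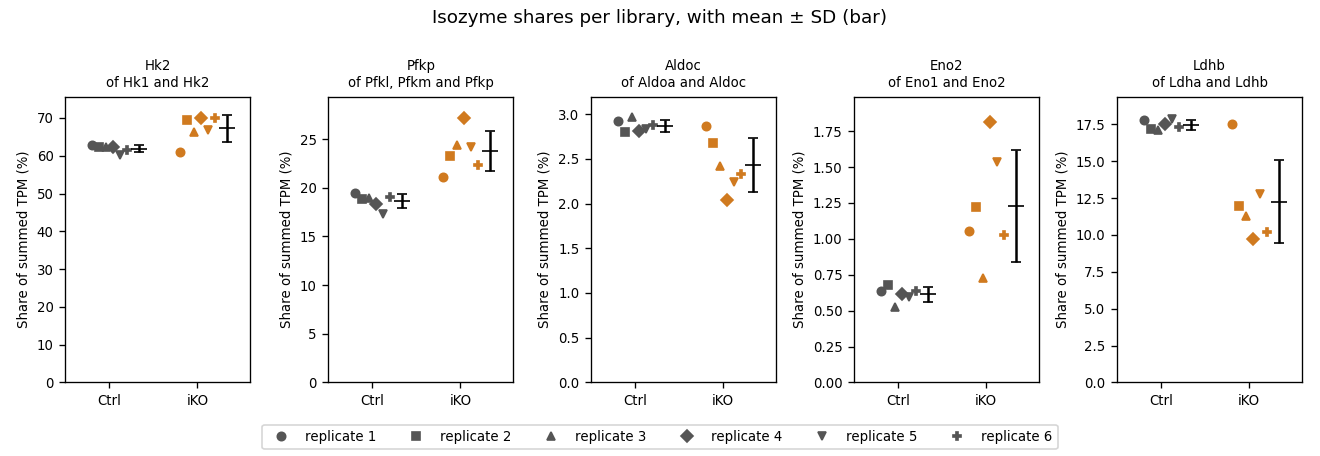
Share of the summed TPM of an isozyme pair or trio held by 1 isozyme (vertical axes in percent, from 0) in each Ctrl and iKO library (symbols by replicate number), with the mean and SD (bars). The shares of Eno2 and Pfkp are above the Ctrl range in all 6 iKO libraries, and the Ldhb share is below it in 5 of 6.

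Of the 4 transporters 2 rose and 1 fell, beside 25.0% and 21.4% of all tested genes, with a median log2 fold change of 0.27. Slc2a1 encodes GLUT1, the main glucose importer of proliferating cells and a HIF target (chr4:119108711-119137983). Its level was 194.7, 206.4 and 217.0 CPM in Ctrl and 189.8, 345.7 and 450.2 CPM in iKO (lowest, median, highest). In iKO 1 it was below every Ctrl library and in the other 5 it was above all of them, and the log2 fold change was 0.71 ± 0.19 (edgeR adjusted p = 0.00847). Slc2a3, the high-affinity importer GLUT3, rose from 29.0 ± 1.91 to 36.5 ± 7.31 CPM (SD, n = 6 each; log2 fold change 0.33 ± 0.12, edgeR adjusted p = 0.0325). Slc16a1, the lactate transporter MCT1 (chr3:104638668-104658462), was at 134.7, 141.1 and 148.4 CPM in Ctrl and at 111.7, 121.4 and 141.0 CPM in iKO. It overlapped Ctrl at its highest library and fell, at a log2 fold change of -0.18 ± 0.06 (SE; edgeR adjusted p = 0.0191). The hypoxia-inducible lactate exporter Slc16a3 (MCT4) was at 257.4 ± 16.6 CPM in Ctrl and 296.5 ± 93.3 CPM in iKO (log2 fold change 0.20 ± 0.19, edgeR adjusted p = 0.393), and without iKO 1 it passed (edgeR adjusted p = 0.0356). Slc2a3 was lost without Ctrl 6 (edgeR adjusted p = 0.0634), iKO 4 (0.0788), iKO 5 (0.0658) or iKO 6 (0.0721), and Slc16a1 without Ctrl 3 (0.0623), Ctrl 4 (0.0775) or Ctrl 5 (0.0547).

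Of the 5 regulatory kinases 3 rose and 0 fell, beside 25.0% and 21.4% of all tested genes. All 3 that rose were members of the PFKFB family, which make and break down the activator of phosphofructokinase. Also 0 fell at an unadjusted p under 0.05 in edgeR, and 0 in DESeq2 and limma voom. Pfkfb3, a hypoxia-inducible isoform with high kinase activity (ENSMUSG00000026773, chr2:11471433-11554077), was at 32.0, 33.5 and 37.0 CPM in Ctrl and at 45.0, 98.3 and 134.0 CPM in iKO (lowest, median, highest). All 6 iKO libraries were above all Ctrl libraries, iKO 1 being lowest and iKO 4 highest. The mean was 2.74-fold higher in iKO, and the log2 fold change was 1.45 ± 0.21 (edgeR adjusted p = 0.000224).

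Pfkfb4 (chr9:108991778-109032228), another HIF-induced isoform, was at 3.81, 4.78 and 6.81 CPM in Ctrl and at 7.46, 12.1 and 14.8 CPM in iKO. The groups again did not overlap, the mean was 2.27-fold higher and the log2 fold change was 1.18 ± 0.18 (edgeR adjusted p = 0.000179). Pfkfb2, the heart-type isoform, was at 11.7 ± 2.20 CPM in Ctrl and 15.7 ± 1.89 CPM in iKO (SD, n = 6 each; log2 fold change 0.42 ± 0.13, edgeR adjusted p = 0.0157), and 19.5% of its exon length overlaps other genes. Of the summed PFKFB TPM of these 3 genes, Pfkfb3 held 63.2 ± 2.39% in Ctrl and 72.0 ± 6.93% in iKO. The pyruvate dehydrogenase kinases, which divert pyruvate from the mitochondrial route, did not pass: Pdk1, a HIF target, had a log2 fold change of 0.07 ± 0.08 (SE; edgeR adjusted p = 0.495), and Pdk3 had -0.0032 ± 0.078 (0.978).

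The 3 oxygen sensing genes differed from each other. Hif1a, the oxygen-regulated HIF subunit itself (chr12:73901375-73947530), was at 287.0, 317.3 and 334.6 CPM in Ctrl and at 269.5, 279.3 and 304.3 CPM in iKO (lowest, median, highest). The ranges overlapped and its transcript fell, at a log2 fold change of -0.15 ± 0.05 (SE; edgeR adjusted p = 0.0273). That call was lost when any of 7 libraries was left out: Ctrl 1 (edgeR adjusted p = 0.0523), Ctrl 2 (0.0545), Ctrl 3 (0.0815), Ctrl 4 (0.0672), Ctrl 6 (0.0652), iKO 2 (0.0599) or iKO 4 (0.0542).

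Egln3, the prolyl hydroxylase PHD3 and itself a HIF target (ENSMUSG00000035105, chr12:54178981-54203860), was at 3.82, 5.15 and 7.34 CPM in Ctrl and at 6.37, 16.1 and 19.7 CPM in iKO. In 5 iKO libraries it was at least 15.2 CPM and in iKO 1 it was inside the Ctrl range. The mean was 2.86-fold higher in iKO and the log2 fold change, 1.51 ± 0.23, was the largest of the 39 genes (edgeR adjusted p = 0.000214). Egln1, the more abundant hydroxylase PHD2 (chr8:124908587-124949324), was at 216.6, 223.9 and 232.3 CPM in Ctrl and at 178.1, 249.9 and 283.3 CPM in iKO. Here iKO libraries lay on both sides of the Ctrl range, and the log2 fold change was 0.11 ± 0.10 (edgeR adjusted p = 0.407).

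Of the 10 other HIF targets 3 rose (30%), 0 fell and 7 did not pass, with a median log2 fold change of 0.18. Over all tested genes 25.0% rose and 21.4% fell, so the share that rose was near the background. Also 0 fell at an unadjusted p under 0.05 in edgeR, and 0 in DESeq2 and limma voom. Kdm3a, a histone lysine demethylase (chr6:71588972-71632990), was at 218.0, 248.9 and 271.1 CPM in Ctrl and at 291.5, 320.9 and 375.7 CPM in iKO (lowest, median, highest). All iKO libraries were above all Ctrl libraries, and the log2 fold change was 0.38 ± 0.07 (edgeR adjusted p = 0.000571). Ndrg1, a stress-induced gene of differentiation (chr15:66929318-66969640), was at 83.6, 87.6 and 90.7 CPM in Ctrl and at 95.4, 157.7 and 197.9 CPM in iKO. It too was separated, with iKO 1 nearest to Ctrl, and its mean was 1.75-fold higher (log2 fold change 0.80 ± 0.15, edgeR adjusted p = 0.00094). Ankrd37, an ankyrin repeat gene (chr8:45996902-46005707), was at 5.33, 6.14 and 6.87 CPM in Ctrl and at 5.53, 7.996 and 10.46 CPM in iKO. The ranges overlapped through iKO 1 and the log2 fold change was 0.45 ± 0.15 (edgeR adjusted p = 0.0279), a call lost without iKO 4 (0.0655) or iKO 5 (0.0706). Of the exon length of Ankrd37, 26.4% overlaps 2 other genes, mainly 1 on the opposite strand.

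Vegfa, the angiogenic growth factor (chr17:46016993-46032369), was at 307.6, 323.6 and 334.4 CPM in Ctrl and at 261.1, 412.2 and 583.6 CPM in iKO. In iKO 1 it was below every Ctrl library and in the other 5 above all of them; the log2 fold change over all libraries was 0.37 ± 0.15 and did not pass (edgeR adjusted p = 0.0595), while without iKO 1 it was 0.47 (0.00272). Car9, a surface carbonic anhydrase used as a hypoxia marker (chr4:43506966-43513729), was at 209.9, 218.6 and 239.9 CPM in Ctrl and at 141.3, 268.8 and 316.9 CPM in iKO. Its iKO range enclosed the Ctrl range, with a log2 fold change of 0.19 ± 0.17 (SE; edgeR adjusted p = 0.39), and without iKO 1 it passed at 0.31 (0.0294). The collagen prolyl hydroxylases P4ha1 (0.17) and P4ha2 (0.12), the vasodilator peptide Adm (0.09), the mitophagy receptor Bnip3 (0.06; 22.3% of its exon length shared with another gene) and the mTOR inhibitor Ddit4 (-0.08) gave small log2 fold changes that did not pass. Without iKO 1, 7 of the 10 rose (27.1% of all tested genes), and without both Ctrl 5 and iKO 1, 8 rose (27.0% of all tested genes), the additions being Vegfa, Car9, Adm, P4ha1 and P4ha2.

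**Figure D4:**
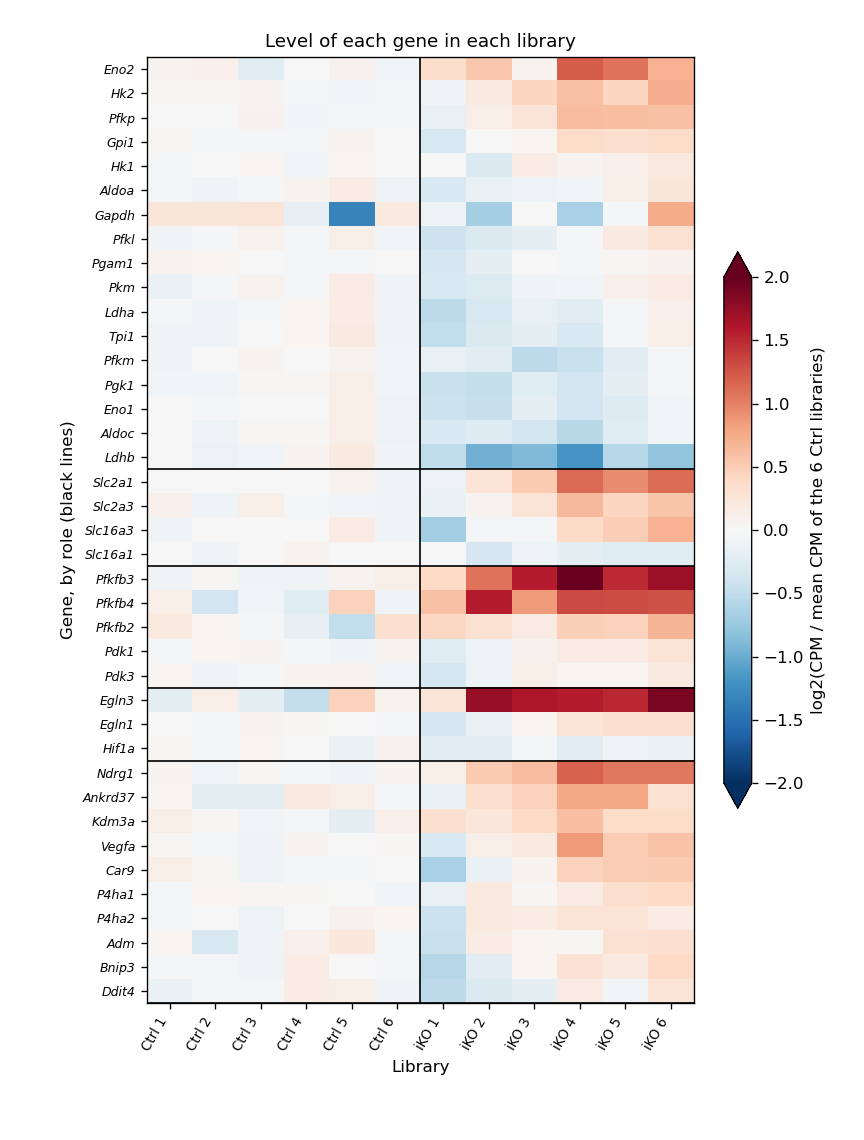
Level of each member in each library as log2 of its CPM over the mean CPM of the 6 Ctrl libraries (colour scale, red above and blue below), genes by role between black lines. The libraries iKO 4 to iKO 6 are the highest of iKO for Slc2a1, Slc2a3, Vegfa, Car9 and Ndrg1, and iKO 1 is the lowest of iKO for 9 of the 10 other HIF targets.

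The iKO libraries varied more among themselves than the Ctrl libraries. The median coefficient of variation of the members' CPM was 5.64% in Ctrl and 18.1% in iKO, against 11.7% and 16.0% over all tested genes, and it was larger in iKO for 37 of the 39 genes, as it was for 67.8% of all tested genes. Within iKO, iKO 1 was the lowest library for 28 of the 39 genes (27.8% of all tested genes) and iKO 6 the highest for 24 (17.3% of all tested genes). For the 10 other HIF targets the lowest was iKO 1 in 9, and the highest was iKO 4 in 5 and iKO 6 in 5. For the 17 enzymes iKO 1 was lowest in 9 and iKO 6 highest in 13.

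Among the iKO libraries, iKO 1 was also the one with the fewest leukocyte and the most pigment cell transcripts. The highest iKO library was iKO 6 for 24 of the 39 genes (17.3% of all tested genes) and iKO 4 for 11 (22.1% of all tested genes). Of the 17 glycolytic enzymes, iKO 6 was highest for 13 and iKO 4 for 3. The leukocyte sum was 1754 CPM in iKO 6 and 2115 CPM in iKO 4. Whether the spread followed cell content was not tested. With the leukocyte level as a covariate, the log2 fold change of Pfkfb3 was 0.42 (edgeR adjusted p = 0.572), that of Pfkfb4 0.33 (0.562), of Egln3 0.23 (0.78), of Ndrg1 0.19 (0.761) and of Kdm3a 0.46 (0.0687). Slc2a1, Slc2a3, Pfkp and Ankrd37 changed sign. The 6 genes that fell in that fit were Ldhb at -0.74 (edgeR adjusted p = 0.0353), Eno1 at -0.55 (0.024), Pgk1 at -0.54 (0.0318), Tpi1 at -0.63 (0.0209), Ldha at -0.63 (0.0178) and Ddit4 at -0.68 (0.0368). Ldhb, Eno1 and Pgk1 were called lower in both fits. The members' median log2 fold change in the covariate fit was -0.28. Because the covariate and the group can hardly be told apart, that fit does not separate these falls from leukocyte level.

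Other cell types also differed in their markers. Of 14 macrophage and monocyte markers 12 rose and 0 fell (summed level 18.3 to 519.9 CPM in Ctrl, 304.8 to 2696 CPM in iKO), and all 10 T cell markers rose (3.79 to 9.37 CPM in Ctrl, 15.7 to 166.9 CPM in iKO). Of 4 tested neutrophil markers 3 rose (0.053 to 6.02 CPM in Ctrl, 1.44 to 46.9 CPM in iKO), while their defining gene Ly6g was at 0 counts in Ctrl and 4 counts in iKO. Fibroblast markers summed to 2395 to 2754 CPM in Ctrl and 633.1 to 15895 CPM in iKO, with 2 of 10 higher and iKO 2 and iKO 5 highest. All 6 tested keratinocyte markers rose (3.09 to 5.27 CPM in Ctrl, 7.56 to 253.0 CPM in iKO), as did 4 of 6 skeletal muscle markers (5.03 to 7.74 CPM in Ctrl, 5.58 to 57.9 CPM in iKO). Of 10 endothelial markers 4 rose and 1 fell (252.4 to 282.5 CPM in Ctrl, 296.6 to 339.3 CPM in iKO), and of 3 tested red blood cell markers 0 rose or fell. The part of these cells in the 39 genes' differences was not tested beyond the covariate.

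Genes of the same pathways outside the 39 were read from lists, of which up to 4 genes past the threshold are named per list. Over all tested genes 25.0% rose and 21.4% fell. Of 26 tested other glycolysis and pyruvate genes (34 listed) 4 rose and 9 fell, with a median log2 fold change of -0.10. Slc2a6, a glucose transporter found in macrophages, rose from 11.04 ± 1.49 to 22.1 ± 2.40 CPM (SD, n = 6 each; log2 fold change 1.00 ± 0.11). Hk3, a hexokinase of myeloid cells, rose from 2.40 ± 4.43 to 97.3 ± 51.3 CPM (5.37 ± 1.11), with its Ctrl and iKO ranges overlapping. Bpgm, the bisphosphoglycerate mutase, fell by 0.43 ± 0.07 and Pdhb, a subunit of pyruvate dehydrogenase, fell by 0.31 ± 0.05 on the log2 scale.

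Of 9 tested other regulators of the HIF pathway (11 listed) 5 rose and 0 fell, beside 25.0% and 21.4% of all tested genes. Their median log2 fold change was 0.19. The coactivators Ep300 and Crebbp, acetyltransferases that HIF recruits, rose by log2 fold changes of 0.78 ± 0.12 and 0.76 ± 0.10. Cited2, which competes with HIF for those coactivators, rose by 0.33 ± 0.06, and Arnt2, a dimer partner, rose from 1.04 ± 0.192 to 2.92 ± 1.40 CPM (1.49 ± 0.33). Of 31 tested other hypoxia-induced genes (34 listed) 9 rose and 5 fell, with a median of 0.24. Nos2, the inducible nitric oxide synthase of activated macrophages, rose from 0.725 ± 0.560 to 35.8 ± 18.8 CPM (log2 fold change 5.64 ± 0.72), and Pgf, a relative of Vegfa, rose from 20.9 ± 1.89 to 43.2 ± 15.4 CPM (1.05 ± 0.21). The repressor Bhlhe40 (0.41 ± 0.08) and the ubiquitin ligase subunit Wsb1 (0.24 ± 0.06) rose by less.

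Of 8 pentose phosphate pathway genes, which branch off glycolysis at glucose phosphate, 2 rose and 2 fell (median log2 fold change -0.11). Of the dehydrogenases of the oxidative branch, G6pdx rose by a log2 fold change of 0.23 ± 0.05. Its endoplasmic reticulum counterpart H6pd rose by 0.49 ± 0.09, while Pgd did not pass, at -0.05 ± 0.07 (edgeR adjusted p = 0.555). Rpe and Rpia, which interconvert the pentose phosphates, fell by 0.41 ± 0.07 and 0.24 ± 0.08 on the log2 scale.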

How the data were processed

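RNA of 12 sorted tumour samples was sequenced as poly-T selected, not strand-specific libraries in 1 batch, per the labels' protocols. The authors deposited 1 table of raw read counts per gene; the submitters' processing notes name mm10 as the build, while aligner and counting tool were not given in the sources used here. Groups follow the labels, which tie no library to a mouse, so p-values measure spread among libraries that may be technical.

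Counts were fitted over the whole table in R 4.3.3 with edgeR 4.0.16 (TMM scaling, filterByExpr with a minimum count of 10 and a minimum total of 15, robust quasi-likelihood F test, group only), with Benjamini-Hochberg adjustment over 16164 genes and 0.05 as the threshold. CPM carry the TMM factors, TPM use the deposited gene length, and SE is the fold change divided by the root of F. Alternatives were DESeq2 1.42.0, limma 3.58.1 (voom), other scalings and filters, a replicate block, a leukocyte covariate and left-out libraries. Methods were tested on simulated counts of 16164 genes, with 66 or 67 genes changed at each size. There edgeR recovered 1.49% of 1.25-fold, 44.8% of 1.5-fold and 87.9% of 2-fold changes. Far fewer genes were changed there than were called in the data (4037 higher and 3464 lower), which makes the adjusted threshold stricter. These recovery rates therefore do not carry over to the data, where Slc16a1 was called at 0.88-fold and Hif1a at 0.90-fold. Unchanged genes made up 2.2% of the calls in edgeR, 4.49% in limma voom and 27.2% in DESeq2. Positions are those of GENCODE models on mm10, and 2 rows carry the symbol Aldoa, of which the one with nearly all counts was used.

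The members and all lists were chosen with earlier results of these data known. Every member is accounted for; library ranges are given, per role, for those past the threshold with the smallest p, for all 3 oxygen sensing genes and for Gapdh, Ldha, Slc2a1, Vegfa and Car9. Of each pathway list up to 4 genes past the threshold with the smallest p are named. Intervals for zero counts cover counting error only.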

Additional observations from a re-analysis of the deposited data

Results flagged for a closer look

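In 6 of 78 groups of 6 libraries (39 genes in Ctrl and in iKO) 1 library lay further from its nearest neighbour than Dixon's 95% limit allows, where chance gives about 1 in 20, or 3.9. Gapdh was at 122.1 CPM in Ctrl 5, with the nearest Ctrl library at 276.6 CPM. It was at 513.4 CPM in iKO 6, with the nearest iKO library at 309.5 CPM. Summed with its near-identical copies, described above, it was still lowest of Ctrl in Ctrl 5 and highest of iKO in iKO 6. Slc16a3 was at 288.3 CPM in Ctrl 5 (nearest 258.3) and Bnip3 at 226.3 CPM in Ctrl 4 (nearest 205.4). Egln3 was at 6.37 CPM in iKO 1 (nearest 15.2) and P4ha2 at 64.2 CPM in iKO 1 (nearest 96.1), the library that lay between the groups in leukocyte transcripts.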

How the results depend on the processing

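Of 897 values of single genes under the alternatives, 833 kept direction and side of the threshold, 35 lost and 25 gained a call, and 4 calls changed sign, all with the leukocyte covariate (Pfkp -0.10, Slc2a1 -0.19, Slc2a3 -0.093, Ankrd37 -0.28); 43 changes of sign among genes that passed neither way are not counted as such. That covariate also left 952 genes higher and 996 lower among all genes, 0 of 39 members higher, 0 higher in each of the 5 roles, 0 transporters and 0 oxygen sensing genes lower and 1 other HIF target lower; the cause was not tested. Members higher were 19 without Ctrl 5 and iKO 1, when other HIF targets higher numbered 8; DESeq2 gave 5. Transporters higher numbered 1 under upper-quartile scaling, with no filter and with the replicate block, which also left 0 oxygen sensing genes lower. With 1 library left out, other HIF targets higher ranged from 2 to 7, transporters higher from 1 to 3, transporters lower from 0 to 1 and oxygen sensing genes lower from 0 to 1. Replicate numbers do not pair the samples. Each library was taken as its deviations from the mean of its group, gene by gene. Correlations of these deviations between same-numbered libraries ran from -0.129 to 0.249. By this measure 1 of 6 libraries in each group correlated best with its own number. The block gave 11 members higher and 6 lower, and 3489 and 2984 of all genes. At these depths no member was removed by the filter on low counts, and counting error is largest for Ankrd37, Pfkfb4 and Egln3, which had the fewest counts.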
